A study of Mus musculus with 85 samples.

Results

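MYC and its partner MAX sit at the centre of a network of transcription factors, and 8 genes of that network were followed through mouse preimplantation development and through culture without pyruvate or without lactate. The genes were Myc, Mycn, Mycl, Max, Mnt, Mga, Mlx and Mxd3, found in the table by their symbols, and all 8 were present among the 37367 genes used. Each was described in all 21 groups and 85 libraries, with its level in CPM, counts of a gene scaled to the same total in every library.

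The 3 MYC proteins bind DNA only as dimers with MAX, at the E-box CACGTG, and drive genes of ribosome making, nucleotide synthesis, metabolism and cell division. MNT and MXD3 also dimerise with MAX, at the same sites, and recruit SIN3 corepressors, so that they oppose MYC. MGA, the largest protein of the network, joins MAX to the Polycomb complex PRC1.6, which keeps germ cell genes silent. MLX is the counterpart of MAX in a parallel branch: it pairs with the nutrient sensors MLXIP (MondoA) and MLXIPL (ChREBP), and also with MNT and MXD1. In the mouse embryo the genome is switched on in earnest in the 2-cell stage, and pyruvate is the classical energy source for the first cleavages.

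RNA from B6C3F1/J wild type embryos was sequenced by Smart-seq2, which copies polyadenylated RNA and does not keep its strand. Standard medium was KSOM, with 5 mM L-lactate and with pyruvate and glucose at 0.2 mM each, and ages are hours after injection of hCG, the hormone that times ovulation. The standard groups were early 2-cell (34 h, 3 libraries), mid 2-cell (42 h, 4), late 2-cell (48 h, 3), very late 2-cell (52 h, 3), early 4-cell (55 h, 4), late 4-cell (62 h, 4), early 8-cell (66 h, 3) and late 8-cell (74 h, 2). Later standard groups were morula (78 h, 6), early 16-cell (80 h, 5), early 32-cell (90 h, 4) and blastocyst (114 h, 4). The labels of the standard blastocysts hold the letters PVA (ConB_PVA), which those of the other blastocysts (NoPyrB and NoLacB) lack. The part of any difference behind that label was not tested. In medium without pyruvate, with lactate and glucose unaltered, embryos were taken as 2-cell embryos at 42 h (4 libraries), 48 h (5), 52 h (4) and 55 h (4), as morulae at 78 h (5) and as blastocysts at 114 h (5). In medium without lactate, with pyruvate and glucose unaltered, they were taken as morulae (78 h, 5) and blastocysts (114 h, 4). A last group of morulae (78 h, 4 libraries) was grown without pyruvate and with 20 nM KY-PYR-9, called a myc inhibitor in the labels. No group with the inhibitor's solvent alone is named in the labels, and the number of embryos in a library is not given in the sources used here. P-values therefore measure only the spread between these libraries, which may be technical.

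Depth ran from 10.2 to 42.6 M reads per library (median 19.6 M), and 3 reads corresponded to 0.07 to 0.294 CPM. The 7 embryo markers summed to 71.3 to 956 CPM in every library. The 4 sperm markers summed to 0 to 3.90 CPM, the 7 cumulus and granulosa markers to 0.334 to 98.6 CPM, and the 2 haemoglobin and leukocyte markers in the table to 0 to 35.9 CPM. The highest sums of the last 2 lists were in pyruvate-free 2-cell embryos at 55 h. There Amhr2 stood at 77.6 ± 12.9 (SD) CPM and Hba-a1 at 26.1 ± 7.12 CPM. The next highest mean of the 2 lists in that group was 1.83 CPM, of Tnfaip6. Library 1 of the standard morulae stood apart, with 34.7% of its reads in its 100 most abundant genes. Library 2 was next at 30.1%, and the others lay at 24.2 to 25.5%. Results that rest on the standard morulae were also computed without libraries 1 and 2. These values are printed where they change a call or a count or move a called difference by over 1.5 times. Changes below are differences of log2(CPM + 1) with standard errors (SE), tested with limma over all genes with Benjamini-Hochberg adjustment, and a gene is said to rise or fall at an adjusted p under 0.05. The scale understates changes of genes near 1 CPM. The median change of all genes differed from 0 in several comparisons, and it is given there because median-ratio or quantile scaling sets it near 0 and so turns each change into one relative to the other genes.

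Among the 7 genes with a start site window in the RefSeq table (GRCm38.p6, 250 bases before to 50 after the start), 3 held the E-box that MYC and MAX dimers recognise: Max, Mnt and Mlx. Myc is not among the 7, and the windows of other network genes were not examined singly. The windows of the 3 genes are shown because they hold the site that the network's own dimers read, and each had 1 copy. The E-box is in capitals and is its own reverse complement, so the search covers both strands, and sequences run 5′ to 3′ along the strand of the gene.
Max, chr12:76962199-76962498, minus strand: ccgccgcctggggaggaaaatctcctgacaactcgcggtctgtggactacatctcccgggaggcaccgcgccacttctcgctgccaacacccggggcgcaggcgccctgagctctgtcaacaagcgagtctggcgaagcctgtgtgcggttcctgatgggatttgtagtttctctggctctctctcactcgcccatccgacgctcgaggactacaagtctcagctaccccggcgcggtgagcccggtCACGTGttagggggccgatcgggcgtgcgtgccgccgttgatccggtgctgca
Mnt, chr11:74830674-74830973, plus strand: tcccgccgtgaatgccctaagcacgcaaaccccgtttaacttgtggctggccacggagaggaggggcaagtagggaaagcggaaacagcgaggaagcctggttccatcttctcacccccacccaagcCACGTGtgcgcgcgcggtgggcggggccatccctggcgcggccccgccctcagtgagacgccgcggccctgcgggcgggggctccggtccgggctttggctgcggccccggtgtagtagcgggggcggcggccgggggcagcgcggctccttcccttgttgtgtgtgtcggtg
Mlx, chr11:101087040-101087339, plus strand: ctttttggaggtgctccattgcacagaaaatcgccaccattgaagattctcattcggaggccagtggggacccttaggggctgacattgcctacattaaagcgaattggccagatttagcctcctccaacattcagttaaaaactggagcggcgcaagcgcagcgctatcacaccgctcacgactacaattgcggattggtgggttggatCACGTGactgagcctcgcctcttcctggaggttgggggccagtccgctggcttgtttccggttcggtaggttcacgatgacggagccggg
The E-box began 3 bases before the start in Max, 123 before it in Mnt and 40 before it in Mlx. The same letters were absent from the windows of Mycn, Mycl, Mga and Mxd3, and were present in 2349 of 32851 windows in the table (7.15%). A match describes the sequence only: no binding was measured here.

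Myc, the family member that drives growth in most dividing cells (chr15:61985391-61990374, plus strand; coordinates are of GRCm38), climbed through the 2-cell stage of standard embryos. Its level was 0.746, 0.602 and 0.481 CPM in the early 2-cell libraries, 3.54, 2.79, 1.93 and 1.89 CPM in the mid 2-cell libraries and 8.95, 11.8 and 8.05 CPM in the late ones. It reached 36.5, 32.4 and 34.5 CPM in very late 2-cell embryos and 65.2, 59.1, 57.6 and 37.2 CPM in early 4-cell embryos. Each 2-cell group lay above the one before it with no overlap between libraries. Myc rose by 1.11 ± 0.36 (SE; adjusted p = 0.0082) from early to mid, by 1.59 ± 0.36 (SE; adjusted p = 1.8e-04) from mid to late and by 1.76 ± 0.38 (SE; adjusted p = 3.6e-04) from late to very late. The last step was 3.60-fold in mean CPM. The first rise was not called under median-ratio (0.77) or quantile scaling (0.39), where the median of all genes, 0.43 on the deposited scale, is near 0. In bulk libraries, RNA in fewer cells of an embryo and less RNA in each cell cannot be told apart.

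From the late 4-cell stage to the morula the level of Myc varied widely. It was 79.7, 64.3, 69.2 and 110.1 CPM in late 4-cell, 39.04, 42.5 and 33.99 CPM in early 8-cell and 78.998 and 56.9 CPM in late 8-cell libraries. All early 8-cell libraries lay below all late 4-cell and late 8-cell libraries, though limma called neither step. Standard morulae held 9.37 to 68.2 CPM (median 55.04, 6 libraries). Library 1, at 9.37 CPM, was the lowest and library 2 the next, so leaving out both raises the Myc mean of the group. The step from morula to early 16-cell embryos was -0.53 ± 0.28 (SE; adjusted p = 0.15), and it became -0.92 (adjusted p = 3.0e-04) without morula library 1 and -1.13 (adjusted p = 7.8e-06) without libraries 1 and 2. Early 16-cell libraries held 39.99, 22.997, 24.3, 24.3 and 25.2 CPM and early 32-cell libraries 8.90, 4.14, 6.84 and 5.53 CPM, with no overlap, and Myc fell by 1.96 ± 0.31 (SE; adjusted p = 7.5e-06). It rose again by 1.74 ± 0.33 (SE; adjusted p = 2.7e-05) to 31.9, 22.9, 17.8 and 21.03 CPM in blastocysts.

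Mycn, the family member known from embryonic and neural progenitors (chr12:12936093-12941914, minus strand), was a gene of the blastocyst in these libraries. It lay at 0 to 0.149 CPM in early 2-cell embryos and rose by 1.62 ± 0.33 (SE; adjusted p = 6.8e-05) to 3.37, 1.88, 1.34 and 3.36 CPM at the mid 2-cell stage. No library of the standard groups from the late 2-cell stage to the early 32-cell stage exceeded 4.61 CPM. Early 32-cell libraries held 1.50, 0.410, 1.11 and 1.08 CPM and blastocysts 20.7, 20.1, 26.5 and 20.7 CPM. That is 21.5-fold in mean CPM, a rise of 3.53 ± 0.31 (SE; adjusted p = 9.3e-13), which was called under every alternative tried. Mycl, the third family member (chr4:122995652-123002485, plus strand), stayed below 5 CPM in every standard library. Its level was 3.54, 4.19, 2.78 and 1.92 CPM in early 4-cell and 0.0306, 4.35, 0 and 0.389 CPM in late 4-cell libraries, and 0.191, 0.245, 0.211 and 0.283 CPM in blastocysts. It rose by 1.02 (adjusted p = 0.036) from early to mid 2-cell and fell from early to late 4-cell by 1.27 ± 0.38 (SE; adjusted p = 0.0065), but the first call was lost without any 1 of the early 2-cell libraries and the second when only the compared groups were fitted.

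Which MYC gene supplied the transcripts differed by stage, when levels were divided by the length of each gene's exons (CPM per kilobase). Myc made up 47.03% ± 12.3 (SD) of the sum of the 3 genes in mid 2-cell libraries, with Mycn at 35.9% ± 6.78. Myc made up 92.9% ± 1.15 in very late 2-cell, 97.6% ± 2.68 in late 4-cell and 98.4% ± 0.144 in late 8-cell libraries. In standard blastocysts Myc was at 55.6% ± 8.40 and Mycn at 44.02% ± 8.36. Mycn held a share of this size again in blastocysts without pyruvate (44.2% ± 6.58) and without lactate (36.2% ± 5.62).

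**Figure D1:**
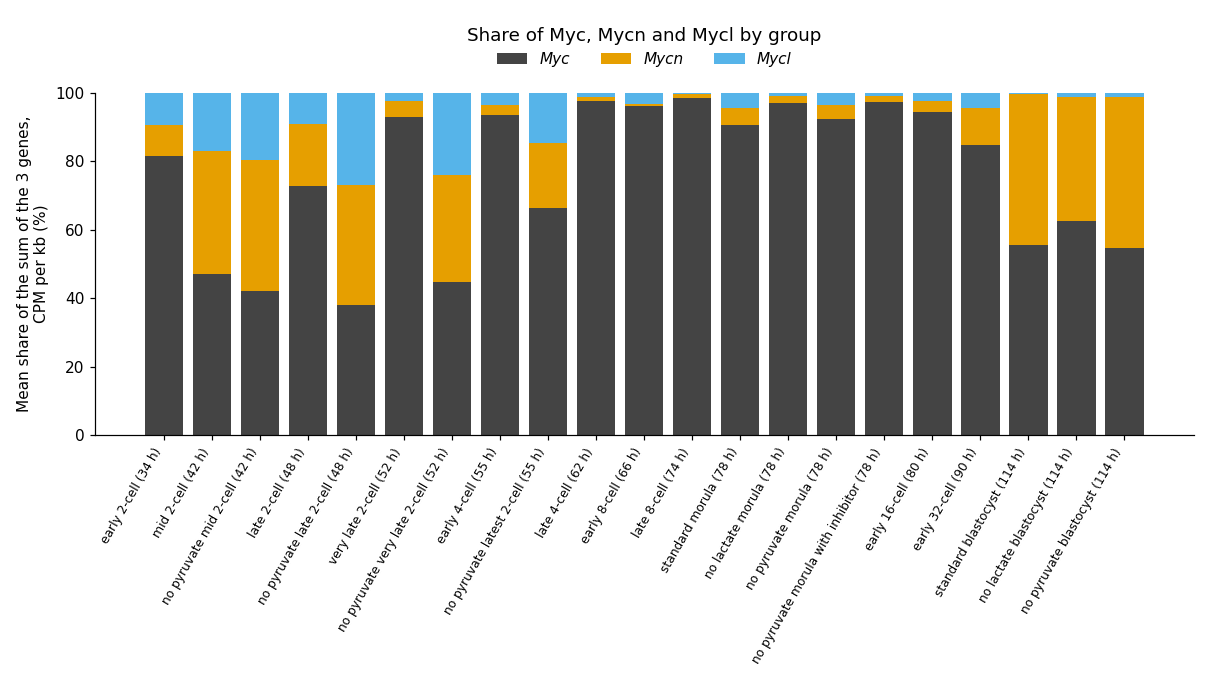
Mean share (%) of Myc, Mycn and Mycl in the sum of the 3 genes in CPM per kilobase, 1 stacked bar for each of the 21 groups. Myc fills over 90% of the bars of the very late 2-cell to early 16-cell standard groups, and Mycn takes 44.0% of the standard blastocyst bar.

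Max, the obligate partner (chr12:76937269-76962201, minus strand), was present in early 2-cell embryos, when Myc was below 1 CPM. Early 2-cell libraries held 16.3, 19.5 and 18.98 CPM of it and mid 2-cell libraries 40.8, 37.8, 38.5 and 36.3 CPM, a rise of 1.04 ± 0.23 (SE; adjusted p = 1.6e-04) that was lost under median-ratio (0.19) and quantile scaling (0.32). It stayed between 28.0 and 43.6 CPM in the late 2-cell, very late 2-cell and early 4-cell libraries. Late 4-cell libraries held 11.8, 18.7, 16.5 and 24.2 CPM, all below the early 4-cell libraries, and Max fell by 0.94 ± 0.21 (SE; adjusted p = 3.3e-04). It fell again from 21.4 to 39.01 CPM (median 28.3, 6 libraries) in morulae to 10.4, 7.08, 10.6, 8.15 and 7.78 CPM in early 16-cell embryos, with no overlap and a change of -1.58 ± 0.18 (SE; adjusted p = 1.9e-09). Blastocysts held 17.4, 16.99, 7.78 and 10.8 CPM against 8.23, 6.64, 5.21 and 7.48 CPM in early 32-cell embryos, where ranges overlapped, with a rise of 0.80 ± 0.21 (SE; adjusted p = 0.0016).

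The summed MYC genes relative to Max, in CPM per kilobase within a library, give a measure that one scale factor for a library does not alter; quantile scaling, which maps values by rank, can alter it. This ratio was 0.0569 ± 0.0237 in early 2-cell, 0.191 ± 0.0483 in mid 2-cell, 0.525 ± 0.105 in late 2-cell and 1.42 ± 0.253 in very late 2-cell libraries (mean ± SD). It passed 1 in very late 2-cell embryos and was 2.30 ± 0.728 in early 4-cell and 6.39 ± 1.81 in late 4-cell libraries. Both 8-cell groups lay near 4, at 4.05 ± 0.956 (early) and 4.10 ± 0.781 (late). Later standard groups lay at 2.38 ± 1.34 (morula), 4.38 ± 0.792 (early 16-cell), 1.47 ± 0.490 (early 32-cell) and 4.58 ± 1.61 (blastocyst). The morula libraries spanned 0.851 to 4.34 and include library 1, the lowest in Myc. This ratio was not computed without morula libraries 1 and 2. It compares RNA, not protein.

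**Figure D2:**
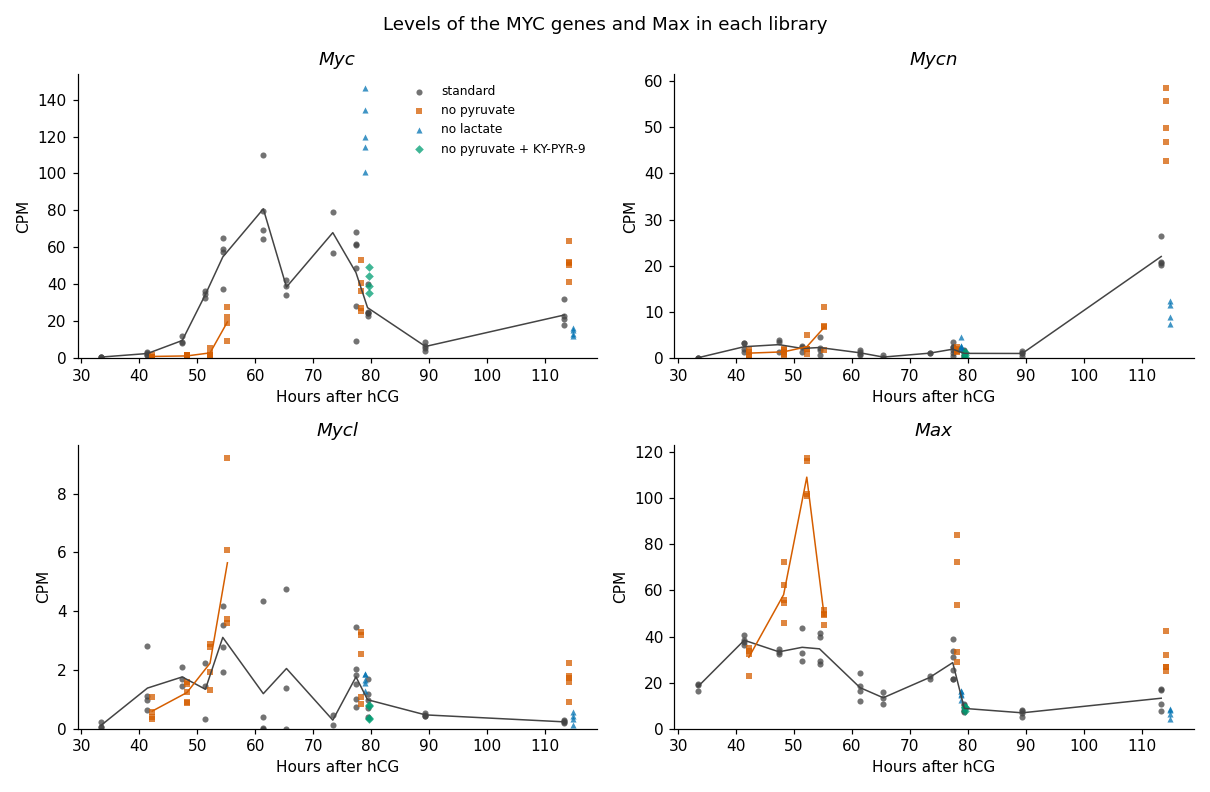
Level (CPM) of Myc, Mycn, Mycl and Max in each library against hours after hCG, 1 point per library and coloured by medium, points shifted slightly sideways; lines join the means of the standard groups and of the 2-cell groups without pyruvate. Myc climbs from under 1 CPM at 34 h in standard medium and is still under 6 CPM at 52 h without pyruvate, while Max without pyruvate stands at 101 to 118 CPM at 52 h.

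Among the antagonists, Mnt (chr11:74830920-74845725, plus strand) followed a low course with its highest standard values at the 4-cell stage. It was at 0.532, 0.377, 0.535 and 0.550 CPM in mid 2-cell, 3.36, 1.89 and 2.58 CPM in very late 2-cell, 4.65, 3.15, 5.73 and 6.97 CPM in early 4-cell and 9.05, 7.82, 5.07 and 2.92 CPM in late 4-cell libraries. The rises from mid to late 2-cell, 0.74 (adjusted p = 0.024), and from very late 2-cell to early 4-cell, 0.74 (adjusted p = 0.032), were each lost when single libraries were left out. Mnt fell by 1.03 ± 0.23 (SE; adjusted p = 2.7e-04) from morula to early 16-cell embryos, where libraries held 0.872, 0.561, 1.49, 0.619 and 0.893 CPM; without morula libraries 1 and 2 the change was -0.77 (adjusted p = 0.0037). Mxd3, a MAX partner known from dividing cells (chr13:55325168-55329823, minus strand), was listed at 0 in 2 of the 3 early 2-cell libraries. It rose by 1.601 ± 0.27 (SE; adjusted p = 1.8e-06) from 0.460, 0.539, 0.280 and 0.521 CPM in mid 2-cell to 2.50, 4.21 and 3.63 CPM in late 2-cell libraries, with no overlap. It then stayed between 1.68 and 9.63 CPM in the very late 2-cell, early 4-cell, early 8-cell and morula libraries. It fell from 4.23, 2.35, 2.02 and 3.24 CPM in early 32-cell libraries to 1.10, 0.827, 0.404 and 0.658 CPM in blastocysts, a change of -1.16 ± 0.25 (SE; adjusted p = 1.4e-04).

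Mga (chr2:119897228-119969581, plus strand) climbed through the early 2-cell, mid 2-cell and late 2-cell groups and was lower again from the late 4-cell stage. Its level was 8.57, 10.2 and 9.37 CPM in early 2-cell, 33.7, 41.8, 31.6 and 42.8 CPM in mid 2-cell and 134, 146 and 167 CPM in late 2-cell libraries, with no overlap. The rises were 1.88 ± 0.25 (SE; adjusted p = 2.7e-08) and 1.97 ± 0.25 (SE; adjusted p = 7.7e-09), and both were called under every alternative. From 129, 128, 90.9 and 137 CPM in early 4-cell libraries it fell by 1.39 ± 0.23 (SE; adjusted p = 6.1e-06) to 51.2, 55.8, 47.9 and 30.2 CPM in late 4-cell libraries. It fell again to 17.3, 15.4, 16.5 and 17.8 CPM in early 32-cell embryos, a change of -1.06 ± 0.22 (SE; adjusted p = 3.7e-04) from the early 16-cell group. Blastocysts held 7.36, 7.70, 5.91 and 14.03 CPM, a change of -0.92 ± 0.23 (SE; adjusted p = 0.001) from the early 32-cell group that was lost under median-ratio (-0.36) and quantile scaling (-0.57).

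Mlx (chr11:101087277-101092207, plus strand) was low up to the early 4-cell stage and higher at later stages. It stood at 4.08, 5.30 and 5.25 CPM in early 2-cell and 2.49, 1.35, 2.49 and 4.04 CPM in early 4-cell libraries, and rose by 1.29 ± 0.25 (SE; adjusted p = 5.1e-05) to 5.03, 4.70, 9.68 and 13.1 CPM in late 4-cell libraries. All standard libraries from the early 8-cell stage to the blastocyst held 9.72 to 21.5 CPM. Before that rise Mlx fell by 0.99 (adjusted p = 0.0025) from very late 2-cell to early 4-cell embryos, a call that was lost without very late 2-cell library 3. The exons of Mlx share 385 bases (19.3%) with Psmc3ip on the opposite strand and those of Mxd3 share 105 bases (4.4%) with Prelid1, so reads there cannot be assigned by strand; the change of the neighbour is given below where it bears on a result. Psmc3ip fell by 0.88 between the 4-cell groups, where Mlx rose. Prelid1 rose by 2.06 from mid to late 2-cell, as did Mxd3.

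**Figure D3:**
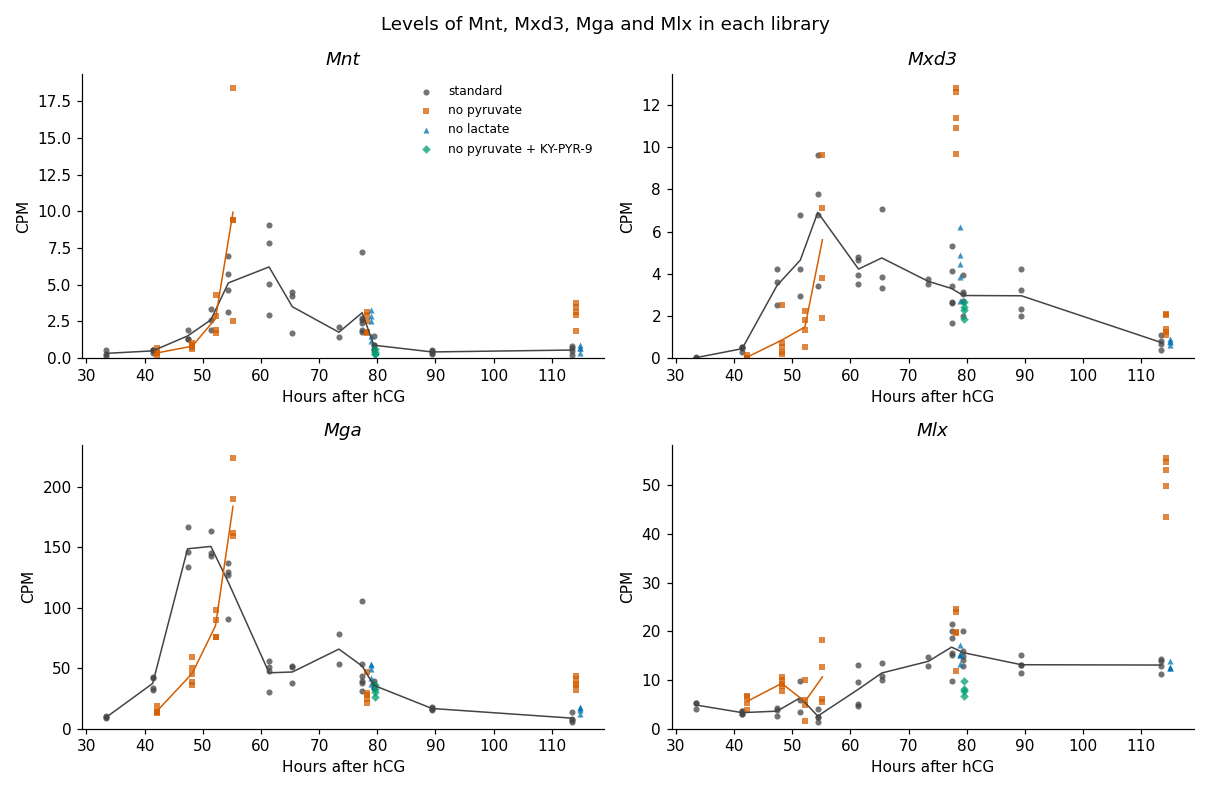
Level (CPM) of Mnt, Mxd3, Mga and Mlx in each library against hours after hCG, 1 point per library and coloured by medium, points shifted slightly sideways; lines join the means of the standard groups and of the 2-cell groups without pyruvate. Mga stands at 134 to 167 CPM in the late and very late 2-cell standard groups, and Mlx without pyruvate stands at 43.5 to 55.6 CPM at 114 h, above all other groups.

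Counted over the 8 genes, the steps of standard development called 5 of them from early to mid 2-cell (all higher; 50.7% of all genes called), 4 from mid to late 2-cell (all higher; 59.1%) and 1 from late to very late 2-cell (34.0%). The following steps called 2 (Mnt higher, Mlx lower) from very late 2-cell to early 4-cell (43.9%) and 4 (Mlx higher, Mycl, Max and Mga lower) from early to late 4-cell (40.0%). None of the 8 was called by limma from late 4-cell to early 8-cell (7.45% of all genes), early to late 8-cell (7.13%) or late 8-cell to morula (2.53%). At an unadjusted p under 0.05 those 3 steps held 4038, 3966 and 2942 genes in all, and for Myc the differences were -1.02 (adjusted p = 0.07), 0.79 (adjusted p = 0.31) and -0.76 (adjusted p = 0.35). Max and Mnt, both lower, were called from morula to early 16-cell (37.6%), Myc and Mga, both lower, from early 16-cell to early 32-cell (20.7%), and 5 genes (Myc, Mycn and Max higher, Mga and Mxd3 lower) from there to the blastocyst (41.8%). The counts of members lie on both sides of these shares of all genes.

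Other genes of the network and its targets, from lists chosen with earlier results in view, were counted in the same steps. From mid to late 2-cell, 23 of 30 genes that MYC is known to activate rose and 1 fell, with a median change of 1.79 against 0.39 for all genes. Of the 20158 genes tested, 8752 rose and 3153 fell in that step. Cad, which starts pyrimidine synthesis, went to 25.4 ± 3.29 against 2.22 ± 0.903 CPM, and Bop1, a ribosome assembly factor, to 37.8 ± 9.60 against 4.55 ± 0.787 CPM. Nme1, a nucleotide kinase, stood at 46.9 ± 4.996 against 5.91 ± 1.55 CPM. Of 17 cofactors and corepressors of MYC 11 rose and 2 fell (median 1.21). Of 10 regulators of MYC protein turnover 8 rose and 0 fell (median 1.61). Of 9 partners of MGA in PRC1.6, 6 rose and 0 fell (median 0.84), L3mbtl2 standing at 64.6 ± 11.4 against 14.9 ± 3.05 CPM. From early to late 4-cell, 11 of 13 germ cell genes that PRC1.6 represses fell and 0 rose (median -1.28 against -0.11), as Mga itself fell. In that step 5368 of all genes tested fell and 2698 rose. From early 32-cell to blastocyst, 22 of 30 genes activated by MYC fell and 2 rose (median -1.07 against -0.14), where Myc and Mycn rose. There 5875 of all genes tested fell and 2542 rose. Of 8 genes that MYC is known to repress 4 rose and 0 fell from mid to late 2-cell. The same step called 1 higher and 1 lower of 4 glucose-responsive targets of MLX partners.

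The 5 remaining MAX and MLX network genes included Mxd1, whose level was highest in early 2-cell embryos. This MAX-binding repressor, linked to the stop of cell division, was at 52.2 ± 5.72 CPM in early 2-cell, 24.5 ± 5.28 in late 2-cell, 14.3 ± 2.63 in early 4-cell and 0.484 ± 0.0903 in blastocyst libraries. Per kilobase it was the most abundant of the network's 13 genes in early 2-cell embryos, at 7.38 CPM per kilobase, ahead of Max at 5.07. Mlxip, the sensor MondoA, was at 8.24 ± 1.02 CPM in early and 52.7 ± 6.67 CPM in very late 2-cell embryos. From early to late 4-cell, 5 of 5 fell, with a median of -1.33 against -0.11 for all genes. Of the 20158 genes tested, 5368 fell in that step. From morula to early 16-cell again 5 of 5 fell, with a median of -0.90 against -0.13, and 5591 of the 20158 genes fell.

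Without pyruvate, 2-cell embryos held less Myc than embryos of the same age in standard medium and, from 48 h, more Max. At 42 h, Myc was at 0.884, 0.763, 1.47 and 0.662 CPM without pyruvate against 3.54, 2.79, 1.93 and 1.89 CPM with it. At 48 h it was at 1.595, 0.537, 1.04, 1.48 and 1.50 CPM against 8.95, 11.8 and 8.05 CPM, and at 52 h at 5.70, 2.39, 1.67 and 1.72 CPM against 36.5, 32.4 and 34.5 CPM. No library without pyruvate reached the lowest standard library at any of the 3 ages. The differences were -0.85 ± 0.27 (SE; adjusted p = 0.012), -2.26 ± 0.28 (SE; adjusted p = 1.8e-08) and -3.31 ± 0.29 (SE; adjusted p = 1.6e-11). The last 2 were called under every alternative, and the first was lost under median-ratio or quantile scaling and without mid 2-cell library 1. At 55 h the embryos without pyruvate were still at the 2-cell stage and are set beside standard early 4-cell embryos of that age, so medium and cell stage cannot be told apart. Progress within the 2-cell stage may also differ between media at 42 to 52 h and was not tested. The embryo marker Zscan4d, for example, stood at 280 ± 31.7 (SD) CPM without pyruvate against 38.5 ± 17.8 CPM at 52 h. Myc was then at 22.6, 27.7, 18.8 and 9.40 CPM against 65.2, 59.1, 57.6 and 37.2 CPM, -1.50 ± 0.27 (SE; adjusted p = 1.7e-05), and within the cultures without pyruvate it had risen by 2.43 ± 0.27 (SE; adjusted p = 2.8e-09) since 52 h.

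Max went the other way. At 48 h it was at 72.2, 54.5, 62.3, 55.999 and 45.7 CPM without pyruvate against 34.7, 33.1 and 32.3 CPM in standard medium, and at 52 h at 102, 116, 118 and 101 CPM against 43.6, 32.8 and 29.5 CPM. The groups did not overlap at either age, and the 52 h values without pyruvate were the highest of Max in all 21 groups. Max was higher by 0.77 ± 0.16 (SE; adjusted p = 1.0e-04) at 48 h and by 1.62 ± 0.17 (SE; adjusted p = 4.4e-10), 3.09-fold in mean CPM, at 52 h, both called under every alternative. At 42 h the difference was -0.32 (adjusted p = 0.11), and by 55 h Max had fallen by 1.14 ± 0.16 (SE; adjusted p = 1.3e-07) from its 52 h level, to 49.99, 44.96, 49.5 and 51.5 CPM. These 55 h libraries still lay above the early 4-cell libraries, at 28.02, 41.6, 39.7 and 29.3 CPM, and the difference, 0.51 (adjusted p = 0.0057), was lost under median-ratio (0.20) and quantile scaling (0.33). The summed MYC genes relative to Max, per kilobase, were 0.101 ± 0.0399 at 42 h, 0.0742 ± 0.0248 at 48 h, 0.0799 ± 0.0363 at 52 h and 0.790 ± 0.218 at 55 h without pyruvate. In standard medium they were 0.191 ± 0.0483, 0.525 ± 0.105, 1.42 ± 0.253 and, in 4-cell embryos, 2.30 ± 0.728.

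Of the other members, Mga and Mxd3 were lower and Mlx was higher at some of the ages from 42 to 52 h, and Mycn, Mycl and Mnt were called in neither direction at those ages. Mga was at 18.5, 13.96, 13.04 and 14.1 CPM against 33.7, 41.8, 31.6 and 42.8 CPM at 42 h and at 59.1, 38.3, 36.1, 49.98 and 45.6 CPM against 134, 146 and 167 CPM at 48 h, with no overlap, and the differences were -1.27 ± 0.16 (SE; adjusted p = 4.1e-08) and -1.70 ± 0.17 (SE; adjusted p = 1.2e-10). At 52 h Mga was still lower, with a difference of -0.82 (adjusted p = 1.1e-04), and at 55 h it was at 190.0, 224, 159 and 162 CPM without pyruvate, above the early 4-cell libraries, by 0.60 (adjusted p = 0.0018); median-ratio scaling removed that last call (0.29). Mxd3 was at 2.51, 0.201, 0.296, 0.736 and 0.522 CPM against 2.50, 4.21 and 3.63 CPM at 48 h, where only library 1 without pyruvate reached the standard range, and was lower, with a difference of -1.36 ± 0.33 (SE; adjusted p = 7.0e-04). At 52 h Mxd3 was lower, with a difference of -1.18 (adjusted p = 0.0038), and Prelid1, which shares exon bases with it, was lower, with a difference of -1.39 at 48 h and -1.50 at 52 h. Mlx was higher at 48 h, at 7.83, 9.24, 9.99, 10.7 and 8.79 CPM against 3.87, 2.67 and 4.28 CPM, by 1.17 ± 0.34 (SE; adjusted p = 0.0037). It differed by -0.25 (adjusted p = 0.55) at 52 h and was higher at 55 h by 1.601 ± 0.33 (SE; adjusted p = 1.0e-04). At 42 h the difference of Mlx was 0.59 (adjusted p = 0.18), and it was called under median-ratio (1.18) and quantile scaling (1.31). At 48 h its neighbour Psmc3ip went in the opposite direction, with a difference of -2.88. Mycn differed by -0.70 (adjusted p = 0.12) at 48 h and 0.06 (adjusted p = 0.90) at 52 h and was higher by 1.17 (adjusted p = 0.007) at 55 h, a call lost under quantile scaling. Mycl at 55 h differed by 0.65 (adjusted p = 0.043), a call lost under most alternatives, and Mnt by 0.64 (adjusted p = 0.068), which became 1.11 (adjusted p = 3.4e-04) without library 4 of the 55 h group without pyruvate.

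**Figure D4:**
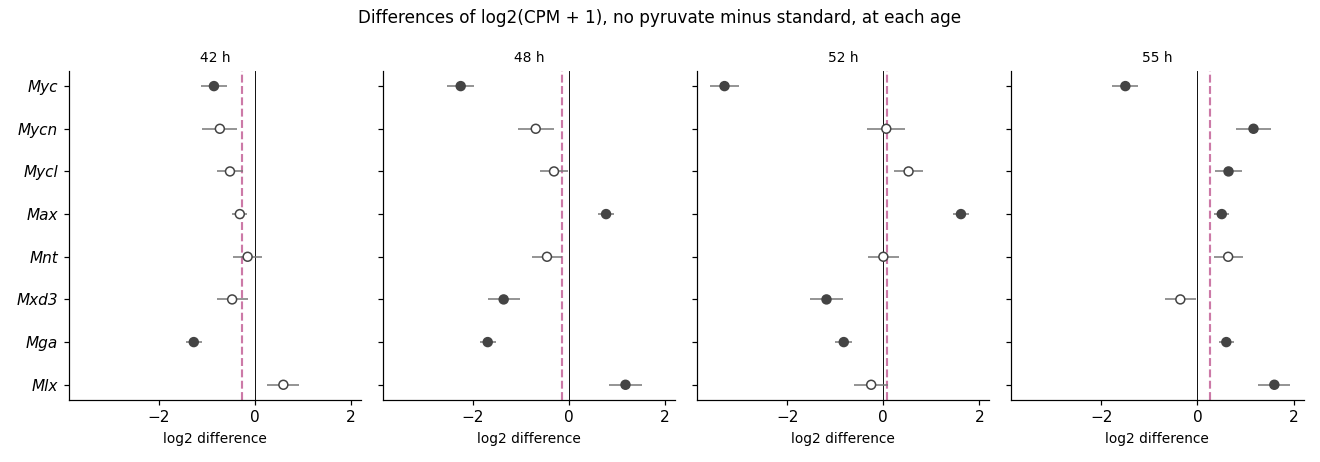
Log2 difference (no pyruvate minus standard) of the 8 genes at 42, 48, 52 and 55 h after hCG; bars are standard errors, filled points have an adjusted p under 0.05 and the dashed line is the median of all genes. Myc reaches -3.31 at 52 h where Max reaches 1.62, with the median of all genes at 0.08.

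In count, 2 of the 8 genes were called at 42 h (36.8% of all genes), 5 at 48 h (56.8%), 4 at 52 h (63.3%) and 6 at 55 h (57.2%). The medians over the 8 genes were -0.499, -0.579, -0.125 and 0.621, against -0.26, -0.14, 0.08 and 0.27 for all genes. Within the cultures without pyruvate, 3 were called from 42 to 48 h (55.8%), 5 from 48 to 52 h (40.4%) and all 8 from 52 to 55 h (59.8%), where 7 rose and Max fell. From 42 to 48 h the median of all genes was 0.59, and under median-ratio scaling Max was at -0.06 in place of its rise of 0.89. Marker lists and the share of abundant genes moved with the medium. The 7 cumulus and granulosa markers summed to 42.5 to 52.4 CPM in standard and 8.72 to 19.2 CPM in pyruvate-free embryos at 48 h, and to 84.2 to 94.2 and 17.5 to 23.3 CPM at 52 h. Within that list at 48 h, Amhr2 stood at 6.15 ± 2.64 CPM without pyruvate against 42.2 ± 4.13, and Inha, at 0 in all standard libraries of that age, at 2.09 ± 1.87. The 4 sperm markers summed to 0.251 to 0.638 CPM in standard and 2.39 to 3.90 CPM in pyruvate-free embryos at 48 h, and to 0.0859 to 0.560 and 2.13 to 3.25 CPM at 52 h. The 2 haemoglobin and leukocyte markers summed to 9.66 to 16.8 and 2.86 to 6.29 CPM at 48 h and to 17.03 to 25.6 and 2.42 to 11.6 CPM at 52 h. The 7 embryo markers summed to 222 to 264 and 378 to 517 CPM at 48 h and to 176 to 224 and 337 to 406 CPM at 52 h. Members of the embryo list went in opposite directions. Zscan4d stood at 374 ± 59.9 CPM without pyruvate against 117 ± 18.5 at 48 h, and at 280 ± 31.7 against 38.5 ± 17.8 at 52 h. Zp3 stood at 26.6 ± 2.53 CPM without pyruvate against 87.9 ± 8.72 at 48 h, and at 53.4 ± 1.45 against 143 ± 13.4 at 52 h. The 100 most abundant genes took 23.7 to 26.7% of reads in standard and 33.1 to 37.97% in pyruvate-free embryos at 48 h, and 20.7 to 24.4% and 29.5 to 33.1% at 52 h. The part of these differences in the results was not tested.

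Genes activated by MYC were mostly lower without pyruvate at these ages. At 42 h, 18 of 30 were lower and 4 higher, where 6465 of the 20736 genes tested were lower and 1157 higher (median -0.26). Of all calls at 42 h 15.2% were higher, and 51.7% and 52.7% under median-ratio and quantile scaling. At 48 h, 21 of 30 were lower and 2 higher (median -1.66 against -0.14 for all genes), and at 52 h 24 were lower and 4 higher (median -1.29 against 0.08). Of all genes, 7105 were lower and 4677 higher at 48 h, and 6500 lower and 6618 higher at 52 h. Bop1 stood at 2.52 ± 1.57 against 37.8 ± 9.60 CPM at 48 h, a difference of -3.54 ± 0.34 (SE; adjusted p = 6.0e-11). Ddx21, an RNA helicase of the nucleolus, stood at 12.1 ± 2.96 against 89.5 ± 2.88 CPM, and Ppat, which starts purine synthesis, at 113 ± 42.1 against 639 ± 42.5 CPM. At 55 h 17 genes activated by MYC were lower and 5 higher, and from 52 to 55 h within the pyruvate-free cultures 25 rose and 1 fell. Of all genes, 4039 were lower and 7815 higher at 55 h, and 6996 rose and 5412 fell from 52 to 55 h. The cofactors and corepressors were lower in 12 and higher in 2 of 17 at 48 h (median -1.16), with Zbtb17 (Miz1), through which MYC represses genes, at 4.14 ± 1.37 against 20.5 ± 4.40 CPM. The regulators of MYC protein turnover were lower in 8 and higher in 0 of 10 (median -1.61), with the kinase Aurka at 172 ± 38.7 against 769 ± 69.8 CPM. Of the PRC1.6 partners of MGA, 6 of 9 were lower and 0 higher (median -0.50). Genes repressed by MYC were lower in 4 and higher in 0 of 8 at 48 h, and lower in 3 and higher in 2 at 52 h. At 55 h they were higher in 6 and lower in 0 (median 1.29 against 0.27 for all genes).

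Of the MAX and MLX network genes that repress, Mxd1 and Mxd4 were higher without pyruvate at 52 h. Mxd1 stood at 49.1 ± 3.66 against 20.4 ± 4.20 CPM at 52 h, a difference of 1.24 ± 0.28 (SE; adjusted p = 2.9e-04), and Mxd4, another MAX-binding repressor, at 32.1 ± 8.26 against 12.4 ± 4.62 CPM, a difference of 1.34 ± 0.23 (SE; adjusted p = 4.1e-06). At 42 h their differences were -0.34 ± 0.26 (SE; adjusted p = 0.36) for Mxd1 and -0.48 ± 0.21 (SE; adjusted p = 0.072) for Mxd4, at 48 h 0.75 ± 0.27 (SE; adjusted p = 0.018) and 0.68 ± 0.22 (SE; adjusted p = 0.0077), and at 55 h 0.60 ± 0.26 (SE; adjusted p = 0.049) and 1.25 ± 0.21 (SE; adjusted p = 4.9e-06). Mxi1, also a MAX-binding repressor, was lower, at 2.26 ± 0.645 against 7.97 ± 0.733 CPM at 48 h. Mlxip differed by 0.57 ± 0.28 (SE; adjusted p = 0.08) at 52 h. Among 3 tested targets of the MLX partners, 2 were higher and 0 lower at 52 h: Klf10 stood at 54.2 ± 10.6 against 8.16 ± 2.51 CPM and Arrdc4 at 10.02 ± 3.21 against 2.51 ± 0.678 CPM. Of the same targets 0 were higher and 2 lower at 42 h, 1 and 1 at 48 h and 2 and 0 at 55 h. Of 14 germ cell genes, 3 were higher and 5 lower at 48 h, 5 higher and 4 lower at 52 h, and 9 higher and 1 lower at 55 h.

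In morulae grown without pyruvate, Mxd3 and Max were higher and Mga was lower than in standard morulae, and only the call of Mxd3 held under every alternative. Libraries without pyruvate held 12.8, 12.6, 11.4, 10.9 and 9.66 CPM and standard morulae 1.68 to 5.30 CPM (median 3.04, 6 libraries), with no overlap. The difference was 1.58 ± 0.21 (SE; adjusted p = 3.6e-06), 3.48-fold in mean CPM, and it was called under every alternative; Prelid1 differed by -0.08. Max was at 53.6, 72.2, 84.1, 28.99 and 33.1 CPM against 21.4 to 39.01 CPM (median 28.3, 6 libraries), and 3 of the 5 libraries without pyruvate lay above all standard ones. Its rise of 0.82 ± 0.23 (SE; adjusted p = 0.0069) was lost under median-ratio (0.52) and quantile scaling (0.57). Mga was at 46.7, 28.1, 24.5, 29.8 and 21.4 CPM against 31.1 to 105 CPM (median 41.9, 6 libraries), a difference of -0.69 ± 0.24 (SE; adjusted p = 0.024) that was lost without morula libraries 1 and 2 (-0.44). Myc was at 36.3, 53.2, 40.4, 27.4 and 25.6 CPM against 9.37 to 68.2 CPM (median 55.04, 6 libraries) and its difference, -0.14 (adjusted p = 0.77), became -0.74 (adjusted p = 0.0029) without morula libraries 1 and 2. In count, 3 of 8 genes were called beside 39.4% of all genes, whose median was 0.28; of all calls 83.2% were higher, and 57.5% and 47.4% under median-ratio and quantile scaling.

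Genes repressed by MYC and germ cell genes repressed by PRC1.6 were higher in these morulae. Of the 16031 genes tested, 5257 were higher and 1062 lower. Of 8 tested genes that MYC is known to repress, 8 were higher and 0 lower (median 1.39 against 0.28): the cell cycle inhibitor Cdkn1a stood at 402 ± 92.6 against 147 ± 21.5 CPM and Cdkn1b at 6.74 ± 7.43 against 0.875 ± 0.790 CPM. Of 30 genes activated by MYC 7 were higher and 12 lower (median -0.18), and Ldha, which interconverts pyruvate and lactate, stood at 84.6 ± 11.5 against 11.3 ± 3.91 CPM. Of 13 germ cell genes repressed by PRC1.6, 10 were higher and 0 lower (median 1.04): the germ cell RNA-binding protein gene Dazl stood at 28.8 ± 9.38 against 2.75 ± 1.15 CPM and Sycp3, of the meiotic chromosome axis, at 64.5 ± 18.8 against 13.9 ± 4.41 CPM. The PRC1.6 partners were called in 1 higher and 1 lower of 9, the cofactors in 4 higher and 2 lower of 17, and the turnover genes in 2 higher and 1 lower of 10. Of the 5 further network genes 4 were higher, among them Mlxip (13.3 ± 6.22 against 4.45 ± 1.41 CPM), Mlxipl (6.48 ± 0.689 against 2.23 ± 1.36 CPM) and Mxd4 (9.35 ± 1.78 against 3.84 ± 1.68 CPM). The MLX partner targets gave 0 higher and 1 lower of 4. Without standard morula libraries 1 and 2 the counts were 8 higher and 0 lower for genes repressed by MYC, 10 and 0 for germ cell genes, 7 and 14 for genes activated by MYC, 1 and 0 for PRC1.6 partners, 4 and 2 for cofactors, 2 and 0 for turnover genes, 4 and 0 for further network genes and 0 and 2 for MLX partner targets.

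Without lactate, morulae had the highest mean Myc of the 21 groups and less Max. Myc was at 119.7, 135, 114, 101 and 146 CPM against 9.37 to 68.2 CPM (median 55.04, 6 libraries) in standard morulae, with no overlap. It was higher by 1.62 ± 0.34 (SE; adjusted p = 0.0038), 2.66-fold in mean CPM, and called under every alternative, with 1.02 (adjusted p = 5.9e-04) without morula libraries 1 and 2. Max was at 15.1, 12.4, 16.4, 14.8 and 16.2 CPM, below all standard morulae, and lower, with a difference of -0.86 ± 0.23 (SE; adjusted p = 0.016). The summed MYC genes relative to Max, per kilobase, lay at 9.32 to 14.6 in the 5 libraries without lactate and at 0.851 to 4.34 in standard morulae. These 2 genes were the only members called, beside 11.8% of all genes (median 0.10). Of the 16031 genes tested, 1342 were higher and 548 lower. Genes activated by MYC gave 3 higher and 1 lower of 30: Hk2, the first enzyme of glycolysis, stood at 94.9 ± 13.8 against 37.7 ± 17.7 CPM, and Ldha was lower, at 4.77 ± 2.19 against 11.3 ± 3.91 CPM; without morula libraries 1 and 2, 5 were higher and 6 lower. Mlxipl (6.29 ± 1.78 against 2.23 ± 1.36 CPM) and Mlxip (10.6 ± 2.13 against 4.45 ± 1.41 CPM) were both higher, and none of the 8 genes repressed by MYC was called.

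KY-PYR-9 was added to morulae without pyruvate, and its direct comparison is with the morulae without pyruvate alone. Max was the member most reduced: 8.89, 7.51, 9.43 and 9.53 CPM with the inhibitor against 53.6, 72.2, 84.1, 28.99 and 33.1 CPM without it. Every inhibitor library lay below every library of the other group, and Max was lower, with a difference of -2.38 ± 0.25 (SE; adjusted p = 5.1e-08). Mxd3 was at 2.44, 2.68, 1.85 and 2.26 CPM against 12.8, 12.6, 11.4, 10.9 and 9.66 CPM, also with no overlap, and lower, with a difference of -1.92 ± 0.23 (SE; adjusted p = 2.4e-07). Myc, the gene of the protein named as the target, was at 39.3, 49.5, 44.4 and 35.1 CPM against 36.3, 53.2, 40.4, 27.4 and 25.6 CPM, and these ranges overlapped; the difference was 0.24 (adjusted p = 0.57). Mnt (-1.27, adjusted p = 2.7e-04), Mlx (-1.18, adjusted p = 5.9e-05) and Mycl (-0.95, adjusted p = 0.0034) were lower, and Mga (0.10, adjusted p = 0.73) and Mycn (-0.57, adjusted p = 0.067) were not called. Psmc3ip, which shares exon bases with Mlx, was lower too, with a difference of -1.22 (adjusted p = 1.2e-04). Prelid1, which shares exon bases with Mxd3, differed by -0.09.

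In count, 5 of 8 members were called, beside 75.7% of all genes. The comparison carried a shift of most genes, since 67.1% of all genes were called lower and the median of all genes was -0.90. Of all calls 11.4% were higher, and 47.8% and 48.0% under median-ratio and quantile scaling. Under those scalings Max was still lower (-1.34 and -1.31), as was Mxd3 (-1.03 and -0.86), and both stayed called. Myc was then called higher (1.32 and 1.16), as was Mga (1.18 and 1.08), and Mlx (-0.15 and -0.03) and Mycl (-0.42 and -0.21) were no longer called. Mnt stayed called under median-ratio scaling (-0.77) and not under quantile scaling (-0.56). The ratio of the summed MYC genes to Max, which median-ratio scaling does not alter and which was computed from the deposited CPM, lay at 5.01 to 8.99 with the inhibitor and at 0.695 to 1.35 without it, with no overlap. The 100 most abundant genes took 34.6 to 37.5% of reads with the inhibitor and 21.03 to 23.7% without it, and depth was 15.9 to 21.6 and 34.01 to 37.99 M reads; their part in these results was not tested. The 7 embryo markers summed to 94.3 to 131 CPM with the inhibitor, 221 to 331 CPM without it and 320.4 to 506 CPM in standard morulae, and within that list Pou5f1 stood at 36.7 ± 11.2, 148 ± 37.3 and 212 ± 37.8 CPM and Nanog at 43.1 ± 4.72, 35.8 ± 20.8 and 25.5 ± 4.78 CPM. The 7 cumulus and granulosa markers summed to 8.85 to 15.4 CPM with the inhibitor and 32.4 to 37.7 CPM without it. Most of that sum was Amhr2, at 12.1 ± 2.86 and 34.5 ± 2.22 CPM. The next highest mean in the list was 0.405 CPM, of Tnfaip6 without the inhibitor. The part of these markers was not tested.

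Against standard morulae, which differ from the inhibitor group in pyruvate as well, 5 of 8 members were lower beside 59.4% of all genes (median -0.51). Max (-1.56, adjusted p = 1.1e-05) and Mnt (-1.43, adjusted p = 6.5e-05) were called under every alternative. Mlx (-0.93, adjusted p = 6.1e-04), Mycl (-0.76, adjusted p = 0.015) and Mga (-0.59, adjusted p = 0.049) were not, and Mga stood at 0.19 under median-ratio scaling. Psmc3ip, which shares exon bases with Mlx, was lower here as well (-1.22, adjusted p = 1.0e-04). Without morula libraries 1 and 2, Mycl was at -0.59 (adjusted p = 0.053) and Mga at -0.34 (adjusted p = 0.15), no longer called, and Myc was called lower, at -0.50 (adjusted p = 0.025) in place of 0.09 (adjusted p = 0.84). The no-pyruvate and standard comparisons of the inhibitor group share its 4 libraries, and the no-pyruvate morulae enter both the pyruvate and the inhibitor comparison.

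Among genes activated by MYC, 15 of 30 were lower and 10 higher with the inhibitor than without it, with a median of -0.48, above that of all genes (-0.90). Of the 16031 genes tested, 10758 (67.1%) were lower and 1380 higher. Cad stood at 20.5 ± 0.471 against 66.4 ± 11.6 CPM, while the nucleolar gene Nolc1 stood at 632 ± 35.6 against 238 ± 29.1 CPM and the nucleotide kinase gene Nme2 at 464 ± 29.6 against 116 ± 24.4 CPM. Genes repressed by MYC were lower in 7 and higher in 0 of 8 (median -1.23). Of the cofactors and corepressors 14 of 17 were lower and 0 higher (median -1.18), among them the histone deacetylase Hdac2 (15.6 ± 6.74 against 171 ± 102 CPM). PRC1.6 partners were lower in 7 and higher in 0 of 9 (median -0.73), turnover genes in 8 and 1 of 10 (-1.13) and germ cell genes in 7 and 0 of 13 (-0.86). The medians of the PRC1.6 partners and of the germ cell genes lay above that of all genes. All 5 further network genes were lower (median -1.66), with Mxd4 at 1.33 ± 0.395 against 9.35 ± 1.78 CPM. The MLX partner targets gave 2 lower and 0 higher of 4.

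**Figure D5:**
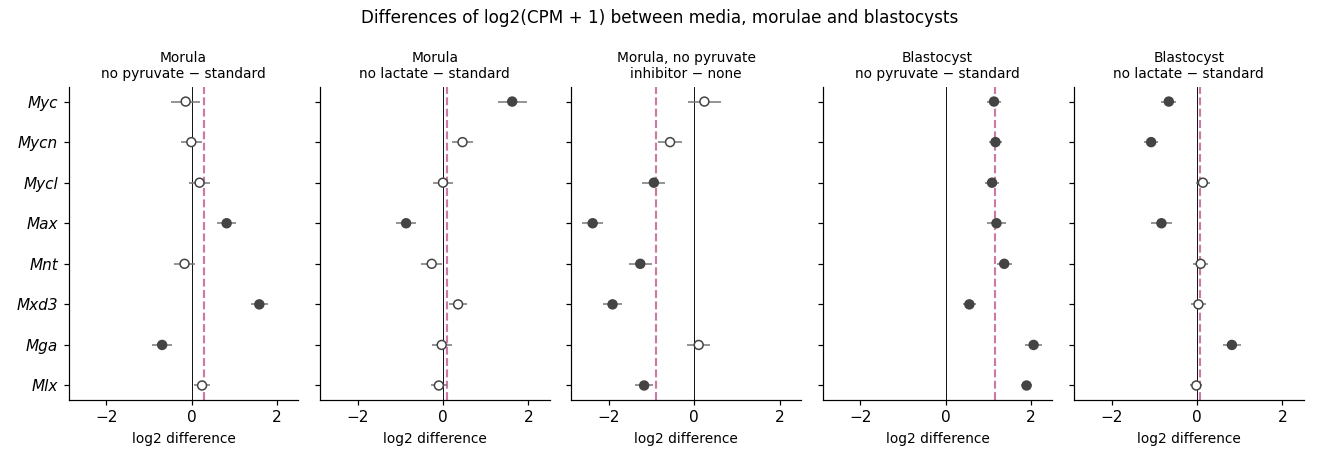
Log2 difference of the 8 genes in the media and inhibitor comparisons of morulae and blastocysts; bars are standard errors, filled points have an adjusted p under 0.05 and the dashed line is the median of all genes. Mxd3 is the member furthest above that line in morulae without pyruvate (1.58 against 0.28), and Max is furthest below it with the inhibitor (-2.38 against -0.90).

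In blastocysts without pyruvate all 8 genes were higher than in standard blastocysts, and so were most genes: 87.9% of all genes were called and 80.8% of all genes were called higher, with a median of 1.15. Of all calls 91.9% were higher, and 49.7% and 56.7% under median-ratio and quantile scaling. Of the 8, 4 stayed called higher under both scalings: Mga, Mlx, Mnt and Mycl. Mlx was at 54.7, 53.2, 49.9, 43.5 and 55.6 CPM without pyruvate against 13.9, 14.3, 11.3 and 12.9 CPM in standard blastocysts, 3.93-fold in mean CPM, the highest values of Mlx in the series. Its difference was 1.90 ± 0.13 (SE; adjusted p = 3.0e-09), and 0.55 under median-ratio scaling; Psmc3ip, which shares exon bases with it, was higher by 2.11. Mga was at 37.003, 32.3, 36.4, 43.6 and 41.1 CPM against 7.36, 7.70, 5.91 and 14.03 CPM, with no overlap, and differed by 2.06 ± 0.19 (SE; adjusted p = 1.9e-08), or 0.74 under median-ratio scaling. Mnt differed by 1.37 (adjusted p = 6.1e-07) and Mycl by 1.09 (adjusted p = 2.8e-06).

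The other 4 genes were not called under either scaling, where their values turned below 0. Myc was at 63.7, 52.1, 41.3, 51.7 and 50.5 CPM against 31.9, 22.9, 17.8 and 21.03 CPM, 1.13 ± 0.17 (SE; adjusted p = 4.9e-06), and at -0.23 under median-ratio scaling. Mycn was at 42.6, 46.7, 58.5, 55.6 and 49.9 CPM against 20.7, 20.1, 26.5 and 20.7 CPM, 1.17 ± 0.16 (SE; adjusted p = 1.7e-06), and at -0.19 under that scaling. Max was at 42.5, 32.2, 24.8, 26.6 and 26.8 CPM against 17.4, 16.99, 7.78 and 10.8 CPM, 1.19 ± 0.23 (SE; adjusted p = 9.3e-05), and at -0.14. Mxd3 differed by 0.56 (adjusted p = 0.0034) and by -0.14 under median-ratio scaling. On the deposited scale each of these groups lay above the standard blastocysts without overlap, so direction here depends on the scale chosen. The ratio of the summed MYC genes to Max was 4.24 ± 0.769 without pyruvate and 4.58 ± 1.61 in standard blastocysts. The 100 most abundant genes took 23.2 to 25.2% of reads without pyruvate and 40.0 to 44.1% in standard blastocysts; their part in the shift was not tested.

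Of the 14312 genes tested, 11565 were higher and 1022 lower. Of the lists, all 9 PRC1.6 partners were higher (median 1.50 against 1.15 for all genes), with L3mbtl2 at 49.5 ± 7.19 against 6.87 ± 2.85 CPM and E2f6 at 17.1 ± 2.99 against 2.51 ± 1.01 CPM. Cofactors and corepressors were higher in 16 of 17 (median 1.71) and turnover genes in 9 of 10 (median 1.84). Genes activated by MYC were higher in 23 and lower in 3 of 29, and their median, 1.23, was near that of all genes. Genes repressed by MYC were higher in 5 and lower in 1 of 6 (median 1.20), with Cdkn1a at 80.3 ± 13.2 against 14.9 ± 5.24 CPM. Germ cell genes were higher in 10 and lower in 0 of 11 (median 1.01), further network genes in 4 and 0 of 4 and MLX partner targets in 2 and 0 of 3.

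Without lactate, blastocysts had less Mycn, with 4 of 8 members called beside 23.3% of all genes (median 0.07). Mycn was at 12.3, 11.5, 8.92 and 7.47 CPM against 20.7, 20.1, 26.5 and 20.7 CPM, with no overlap, and lower, with a difference of -1.07 ± 0.17 (SE; adjusted p = 3.0e-04). Myc was at 16.3, 12.1, 15.2 and 13.3 CPM against 31.9, 22.9, 17.8 and 21.03 CPM, with no overlap, a difference of -0.66 ± 0.18 (SE; adjusted p = 0.013) that was lost without standard library 1 (-0.50). Max, at 8.41, 6.30, 8.25 and 4.37 CPM against 17.4, 16.99, 7.78 and 10.8 CPM, overlapped and differed by -0.83 (adjusted p = 0.02), lost without standard library 1 or 2. Mga was at 15.5, 16.8, 17.6 and 12.3 CPM against 7.36, 7.70, 5.91 and 14.03 CPM and higher by 0.82 ± 0.20 (SE; adjusted p = 0.0074). Genes activated by MYC were higher in 11 and lower in 1 of 29 (median 0.34). Of the 14312 genes tested, 2001 were higher and 1329 lower.

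Whether a medium acted differently in blastocysts and morulae was tested as an interaction, the difference from standard in blastocysts minus that in morulae. Without pyruvate, 7 of the 8 genes had such a difference, beside 58.1% of all genes (median 0.60). It was 2.75 ± 0.34 (SE; adjusted p = 1.3e-07) for Mga, 1.65 ± 0.25 (SE; adjusted p = 3.3e-06) for Mlx and 1.54 ± 0.33 (SE; adjusted p = 2.8e-04) for Mnt, all called under every alternative: Mga was higher in blastocysts (2.06) and lower in morulae (-0.69), and Mlx (1.90 and 0.24) and Mnt (1.37 and -0.17) were higher in blastocysts and not called in morulae. For Mxd3 it was -1.03 ± 0.28 (SE; adjusted p = 0.0029), with Mxd3 at 0.56 in blastocysts and 1.58 in morulae. The genes that share exon bases with Mlx and Mxd3 had interactions of 2.12 (Psmc3ip, adjusted p = 5.3e-07) and -0.44 (Prelid1, adjusted p = 0.088). For Myc (1.27), Mycn (1.18) and Mycl (0.90) the call was lost under both scalings, and for Max the value was 0.37 (adjusted p = 0.38). Without lactate, Myc (-2.28 ± 0.47 SE, adjusted p = 0.002) and Mycn (-1.53 ± 0.33 SE, adjusted p = 0.0034) were called, beside 9.59% of all genes (median -0.06). Myc was thus higher in morulae and lower in blastocysts without lactate, and the interaction of Myc and of Mycn was called under every alternative.

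When the 21 groups were ordered by mean level, the ranges of neighbouring groups overlapped in 17 to 20 of the 20 neighbouring pairs of each gene. Sorting by mean favours such overlap, so it describes the order and does not test whether neighbours differ. Of Max, 17 pairs overlapped, of Myc, Mycn, Mga and Mxd3 18 each, of Mlx 19 and of Mnt and Mycl all 20. Myc ran from early 2-cell embryos (0.609 ± 0.133 CPM) to morulae without lactate (123 ± 17.8 CPM). Max ran from early 32-cell embryos and lactate-free blastocysts (6.89 ± 1.29 and 6.83 ± 1.90 CPM) to pyruvate-free 2-cell embryos at 52 h (109 ± 9.03 CPM). Mga was highest in pyruvate-free 2-cell embryos at 55 h (184 ± 30.2 CPM), as were Mnt (9.94 ± 6.52 CPM) and Mycl (5.65 ± 2.63 CPM).

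As a description over the 21 group means of log2(CPM + 1), which share stages and libraries, the 3 genes most like each member among 15554 genes were listed by Pearson's r. For Myc they were Fbxo22 (0.96), Uggt1 (0.95) and Proser2 (0.95), for Mycn Inava (0.94), Slc44a4 (0.93) and Tjp3 (0.93) and for Mycl they included Gm34220 (0.88) and Rgcc (0.88). For Max they were Ap3s1-ps2 (0.94), Gprasp1 (0.93) and Ap3s1 (0.93); the first is a pseudogene of the third, so reads may be split between them. For Mnt they were L1cam (0.94), Rgp1 (0.93) and Naf1 (0.93), for Mga Dido1 (0.96), Morc2a (0.96) and Chtop (0.96), for Mlx Hs1bp3 (0.94), Elmo3 (0.92) and Adam15 (0.92) and for Mxd3 Adprhl2 (0.96), Laptm4a (0.95) and Prtn3 (0.95). Between members, Mycl and Mga (0.76), Myc and Mxd3 (0.74), Mycl and Mnt (0.74) and Mnt and Mga (0.71) were most alike, while Myc and Max were at -0.29.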

How the data were processed

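RNA was measured in 85 Smart-seq2 libraries in 21 groups, taken from the labels. STAR 2.6.1d (aligner) and mm10 (genome) are named in the submitters' processing notes; the gene annotation and counting are not given in the sources used here. The deposited table holds CPM values with an offset of 0.0001 added by the authors, which was subtracted. Of 91 columns, 85 matched samples by name and 6 were not used. Of 37394 entries, 26 with numbers as names (0.046 to 0.194% of a library's values) and Tdh, with a missing value, were left out. Depth was read from the smallest step between values, and 70.3 to 78.6% of values of up to 20 reads lay within 0.1 of a whole read, so whole reads were not recovered and count tests were not run. At 3 reads, counting error alone is large.

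A fit kept genes that passed 1 CPM in 3 or more of its libraries, and log2(CPM + 1) was tested by limma 3.58.1 (mean trend, two-sided, Benjamini-Hochberg) in R 4.3.3, in 5 fits with 26 comparisons; the procedure was tested on simulated data. Levels per kilobase use exon lengths of GENCODE vM21 (GRCm38), to which 36809 symbols matched. Python 3.11.15, pandas 2.3.3, numpy 2.4.6 and matplotlib 3.10.9 did the rest. Alternatives were a pseudocount of 0.1, no filter, median-ratio and quantile scaling, fitting only the compared groups, a replicate block, and leaving out single libraries or standard morula libraries 1 and 2. The genes, lists and tests were chosen with earlier results of these data known. Named were the 8 genes, the 3 genes most like each, and of each list up to 4 called genes with the largest change and at least 5 CPM, from which examples were taken; the 5 further network genes could all be named. Values of 2 genes that this rule names are not reported here.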

Additional observations from a re-analysis of the deposited data

Results flagged for a closer look

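In 9 of 128 combinations of gene and group with 4 to 10 libraries, 1 library lay far from the others by Dixon's criterion, which chance gives in about 1 of 20. Myc was at 40.0 CPM in library 1 of the early 16-cell group, against 23.0 to 25.2 CPM in the others. Mycn was at 4.61 CPM in library 3 of the morulae without lactate (others 2.10 to 2.73 CPM) and at 26.5 CPM in library 3 of the standard blastocysts (others 20.1 to 20.7 CPM). Mycl was at 4.35 CPM in library 2 of the late 4-cell group, where the others held 0 to 0.389 CPM. Mnt was at 0.377 CPM in library 2 of the mid 2-cell group (others 0.532 to 0.550 CPM). In library 1 of the standard morulae, Mnt was at 7.22 CPM (others 1.81 to 2.73 CPM) and Mga at 105.3 CPM (others 31.1 to 53.6 CPM), while its Myc was the lowest of the group; this is the library with the largest share of reads in few genes. Mxd3 was at 0.168 CPM in library 3 of the mid 2-cell group without pyruvate, where the others were listed at 0, and at 2.51 CPM in library 1 of the late 2-cell group without pyruvate (others 0.201 to 0.736 CPM).

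The difference made by a medium was itself different between blastocysts and morulae in 9 of 16 tests (limma, log2 scale, blastocyst minus morula). Without pyruvate these were Myc (1.27, adjusted p = 0.018), Mycn (1.18, adjusted p = 0.0027), Mycl (0.90, adjusted p = 0.017), Mnt (1.54, adjusted p = 2.8e-04), Mga (2.75, adjusted p = 1.3e-07), Mlx (1.65, adjusted p = 3.3e-06) and Mxd3 (-1.03, adjusted p = 0.0029). Without lactate they were Myc (-2.28, adjusted p = 0.0020) and Mycn (-1.53, adjusted p = 0.0034). The median of all genes was 0.60 in the first test and -0.06 in the second.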

How the results depend on the processing

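Of 208 combinations of gene and comparison, 94 were called, and 57 of these under every alternative tried. Directions reversed as follows. Under median-ratio scaling Mlx went to -0.60 from mid to late 2-cell and to 0.59 from early 32-cell to blastocyst, Max to -0.059 from 42 to 48 h without pyruvate, and Mga to 0.19 for inhibitor against standard (quantile scaling 0.11). In blastocysts without pyruvate, median-ratio and quantile scaling gave -0.23 and -0.12 for Myc, -0.19 and -0.086 for Mycn, -0.14 and -0.19 for Max, and -0.14 and -0.19 for Mxd3; both scalings set the median of all genes near 0 by construction. Without standard morula libraries 1 and 2, Myc went to -0.50 for inhibitor against standard.

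Counts of called genes moved by over 1.5 times in these cases. Fitting only the compared groups, which leaves fewer libraries to estimate the spread, gave 5004 genes for late against early 4-cell (8066 with all groups), 13 for early 8-cell against late 4-cell (1501), 39 for late against early 8-cell (1438), 2 for morula against late 8-cell (509) and 7450 for early 32-cell against early 16-cell (4174). Without standard morula libraries 1 and 2, 1011 genes were called from late 8-cell to morula and 3110 for morulae without lactate (1890); the cause was not tested. Median-ratio and quantile scaling gave 7708 and 7175 from 42 to 48 h without pyruvate (11580), 7919 and 6902 for inhibitor against no pyruvate (12138), and 7748 and 6650 for blastocysts without pyruvate (12587). No filter on low values gave 2192 for blastocysts without lactate (3330). Leaving out 1 library gave 618 to 1411 genes for late against early 8-cell, 79 to 744 for morula against late 8-cell, 2093 to 4469 for blastocysts without lactate and 1078 to 2124 (1629 with all) for the lactate difference between stages.

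The labels' replicate numbers did not pair libraries: in none of 24 comparisons did every pair correlate above 0.1 (correlations -0.27 to 0.29), or every library correlate best with its own number. With the replicate number as a block, 27, 32, 17, 12 and 9 combinations were called in the 5 fits, against 25, 33, 15, 12 and 9 without it; Mycn (-0.67) and Mga (-0.52) from morula to early 16-cell and Mycn for inhibitor against no pyruvate (-0.62) and standard (-0.82) became called, and Mxd3 from 42 to 48 h without pyruvate (0.76) was no longer called.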
